A study of Mus musculus with 9 samples.

Results

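Interferon-stimulated genes were described across 4 populations of CD11b-positive cells sorted from mouse lungs. The 39 genes were chosen by symbol, as genes commonly known to be induced by interferons or to carry their signal, and 37 of them were among the 18193 genes measured. Levels of Isg15 and Ifi44 were not analysed here. Each gene was represented by 1 probe set, the one with the highest mean over all 9 arrays among those annotated to that symbol alone, and for 13 of the 37 such a choice had to be made. All mice were female 4get mice, aged 6 to 8 weeks, on a BALB/c background, in which a green fluorescent protein marks cells that express the Il4 gene. Every mouse received 0.5 µg of IL-25, a cytokine of type 2 inflammation, given in 50 µL by the tracheal route on each of 4 days, so no group was untreated. For each array, cells of 4 donor mice were pooled, CD11b-positive cells were enriched, 400000 cells were sorted and 50 ng of RNA was amplified.

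The 4 labels differed in the sort. The 3 T2M (type 2 myeloid) arrays held reporter-positive cells of intermediate Gr-1 and low MHC class II, with F4/80 and without the IL-5 receptor alpha chain. The 2 eosinophil-labelled arrays held reporter-negative, receptor-positive cells without F4/80, low in MHC class II and high in Gr-1. The 2 neutrophil-labelled arrays held Gr-1-positive cells without reporter, IL-5 receptor or F4/80 and low in MHC class II. The 2 macrophage-labelled arrays held cells with F4/80 and MHC class II but without reporter, IL-5 receptor or Gr-1.

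Interferons act through cell surface receptors whose kinases phosphorylate STAT proteins. Type I and type III interferons lead mainly to a complex that holds STAT2 and IRF9 and binds the interferon-stimulated response element (ISRE), whereas interferon-gamma acts mainly through the gamma-activated sequence (GAS). The induced genes encode RNA sensors, enzymes and binding proteins that block viral RNA, membrane proteins that restrict virus entry or release, and large GTPases that attack intracellular pathogens. Myeloid cells keep part of this programme on without infection, at levels that differ between cell types.

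ISRE cores were sought in reference promoters of the listed genes, because the letters let a reader see where an ISRE core lies in genes that differ below. Sequences are from RefSeq (GRCm38.p6), the genome of another strain than the mice studied, and run from 250 bases before to 50 bases after each annotated start. Capitals mark the ISRE core, GAAANNGAAA on either strand, so that TTTCNNTTTC is the same core on the other strand. Ifit1 lies at chr19:34640639-34640938 (plus strand), Rsad2 at chr12:26456403-26456702 (minus strand), Gbp2 at chr3:142620413-142620712 (plus strand) and Oas3 at chr5:120777610-120777909 (minus strand). Ifitm2, at chr7:140955912-140956211 (minus strand), and Ifitm6, at chr7:141016843-141017142 (minus strand), are neighbours in the Ifitm cluster.
Ifit1: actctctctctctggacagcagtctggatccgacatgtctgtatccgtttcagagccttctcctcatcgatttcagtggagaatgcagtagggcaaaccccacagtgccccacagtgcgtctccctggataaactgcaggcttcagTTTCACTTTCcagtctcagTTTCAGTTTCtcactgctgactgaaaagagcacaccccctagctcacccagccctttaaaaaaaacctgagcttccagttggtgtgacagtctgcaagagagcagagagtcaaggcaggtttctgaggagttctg
Rsad2: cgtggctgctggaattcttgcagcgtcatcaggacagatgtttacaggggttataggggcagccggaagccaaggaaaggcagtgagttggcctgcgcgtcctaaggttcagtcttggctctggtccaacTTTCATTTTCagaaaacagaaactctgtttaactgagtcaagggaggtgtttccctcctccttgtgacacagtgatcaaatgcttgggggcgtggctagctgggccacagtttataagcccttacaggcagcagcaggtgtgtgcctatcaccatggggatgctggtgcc
Gbp2: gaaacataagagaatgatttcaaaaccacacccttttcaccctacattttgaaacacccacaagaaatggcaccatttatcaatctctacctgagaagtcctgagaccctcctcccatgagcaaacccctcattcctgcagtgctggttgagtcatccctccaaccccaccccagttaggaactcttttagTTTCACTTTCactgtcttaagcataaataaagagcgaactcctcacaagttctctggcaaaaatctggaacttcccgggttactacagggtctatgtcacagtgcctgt
Oas3: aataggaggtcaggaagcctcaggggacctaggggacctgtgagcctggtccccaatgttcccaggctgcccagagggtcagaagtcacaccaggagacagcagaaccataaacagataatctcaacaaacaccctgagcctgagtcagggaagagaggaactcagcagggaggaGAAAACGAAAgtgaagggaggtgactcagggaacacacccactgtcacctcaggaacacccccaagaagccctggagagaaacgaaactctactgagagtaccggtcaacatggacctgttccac
Ifitm2: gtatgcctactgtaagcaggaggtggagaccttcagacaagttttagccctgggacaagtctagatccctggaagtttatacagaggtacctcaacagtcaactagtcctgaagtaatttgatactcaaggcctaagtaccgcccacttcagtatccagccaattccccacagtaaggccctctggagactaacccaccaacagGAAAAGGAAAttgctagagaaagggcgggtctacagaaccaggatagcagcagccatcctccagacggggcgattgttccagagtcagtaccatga
Ifitm6: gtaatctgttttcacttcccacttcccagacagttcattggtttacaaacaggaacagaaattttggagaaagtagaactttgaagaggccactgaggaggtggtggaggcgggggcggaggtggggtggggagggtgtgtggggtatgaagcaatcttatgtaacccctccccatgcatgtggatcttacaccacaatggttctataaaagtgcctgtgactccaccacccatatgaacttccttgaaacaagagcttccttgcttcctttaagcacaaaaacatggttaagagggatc

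In the printed promoters the core began 104 bases before the start in Ifit1, which holds 2 of them, 120 bases before it in Rsad2, 59 in Gbp2, 75 in Oas3 and 46 in Ifitm2, and no core stood in the Ifitm6 window. Promoters were at hand for 30 of the 39 genes, Isg15 and Ifi44 among them, some with several starts. The ISRE core was found in 15 of these 30 genes, or 50%, against 3.99% of all 27025 genes with a promoter of the same length. By promoter the figures were 15 of 35, or 42.9%, against 3.44% of 32851. The GAS core, TTCNNNGAA, which reads the same on both strands, was found in 8 of the 30 genes, or 26.7%, against 9.55% of all genes. Matches were counted whether or not an ISRE and a GAS overlapped, and a match is a run of letters, not a bound site.

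Array medians lay between 5.48 and 5.68 on the deposited log2 scale. Marker genes did not follow the labels on every array. Eosinophil markers (9 of 11 measured) had a mean log2 level of 9.77 to 10.05 on T2M arrays, against 6.81 to 7.74 on eosinophil-labelled, 6.19 to 7.69 on neutrophil-labelled and 5.05 to 5.19 on macrophage-labelled arrays. Neutrophil markers (13 of 14) lay at 8.20 to 9.03 on T2M arrays, 11.39 to 11.78 on eosinophil-labelled arrays, 7.33 to 9.03 on neutrophil-labelled arrays and 6.26 to 7.12 on macrophage-labelled arrays. Macrophage markers (12 of 12) were highest on the neutrophil-labelled arrays, at 9.79 to 10.002, where classical monocyte markers (7 of 10) also peaked at 11.05 to 11.24. Dendritic cell markers (7 of 8) were highest on the macrophage-labelled arrays, at 9.62 to 9.89, as were non-classical monocyte markers (7 of 8), at 9.88 to 9.97. Populations are therefore called by their label only, and each comparison below sets 2 labels against each other.

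Plasmacytoid dendritic cells, known as a main source of type I interferon, had markers (10 of 11) at 6.93 to 7.16 on T2M, 6.92 to 7.14 on eosinophil-labelled, 6.97 to 7.29 on neutrophil-labelled and 7.19 to 7.21 on macrophage-labelled arrays. NK cell markers (6 of 7) lay between 5.92 and 8.06, with the highest value on neutrophil-labelled replicate 1, T cell markers (5 of 7) between 5.42 and 6.98, B cell markers (5 of 6) between 6.20 and 8.06, epithelial and endothelial markers (8 of 8) between 6.50 and 8.49, and erythroid and platelet markers (5 of 7) between 6.03 and 7.46. The 2 macrophage-labelled arrays correlated at 0.995 over all probe sets, against 0.922 to 0.974 for other replicate pairs, and the values do not tell 2 pools from 1 RNA on 2 arrays. The share of cells of a type and the RNA per cell cannot be told apart in sorted pools.

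The mean over the 37 genes differed between the labels. Their mean log2 level was 7.26, 6.96 and 7.10 on T2M arrays, 8.76 and 9.10 on eosinophil-labelled arrays, 7.46 and 8.00 on neutrophil-labelled arrays and 8.34 and 8.46 on macrophage-labelled arrays. Every T2M array lay below every array of the other labels, both eosinophil-labelled arrays lay above all others, and the neutrophil-labelled pair lay between T2M and macrophage-labelled arrays. The 3' to 5' difference of the Gapdh control probe sets, a sign of RNA degradation or short amplification, was 3.43, 2.35 and 2.97 on T2M arrays, 2.41 and 1.09 on eosinophil-labelled, 2.20 and 1.45 on neutrophil-labelled and 1.02 and 1.20 on macrophage-labelled arrays. It thus ran partly along with the level of these genes, and its part in the differences was not tested. The same difference for the actin control was 0.61 on T2M replicate 1 and 0.54 on eosinophil-labelled replicate 1, and between -0.10 and 0.03 on the other arrays.

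**Figure D1:**
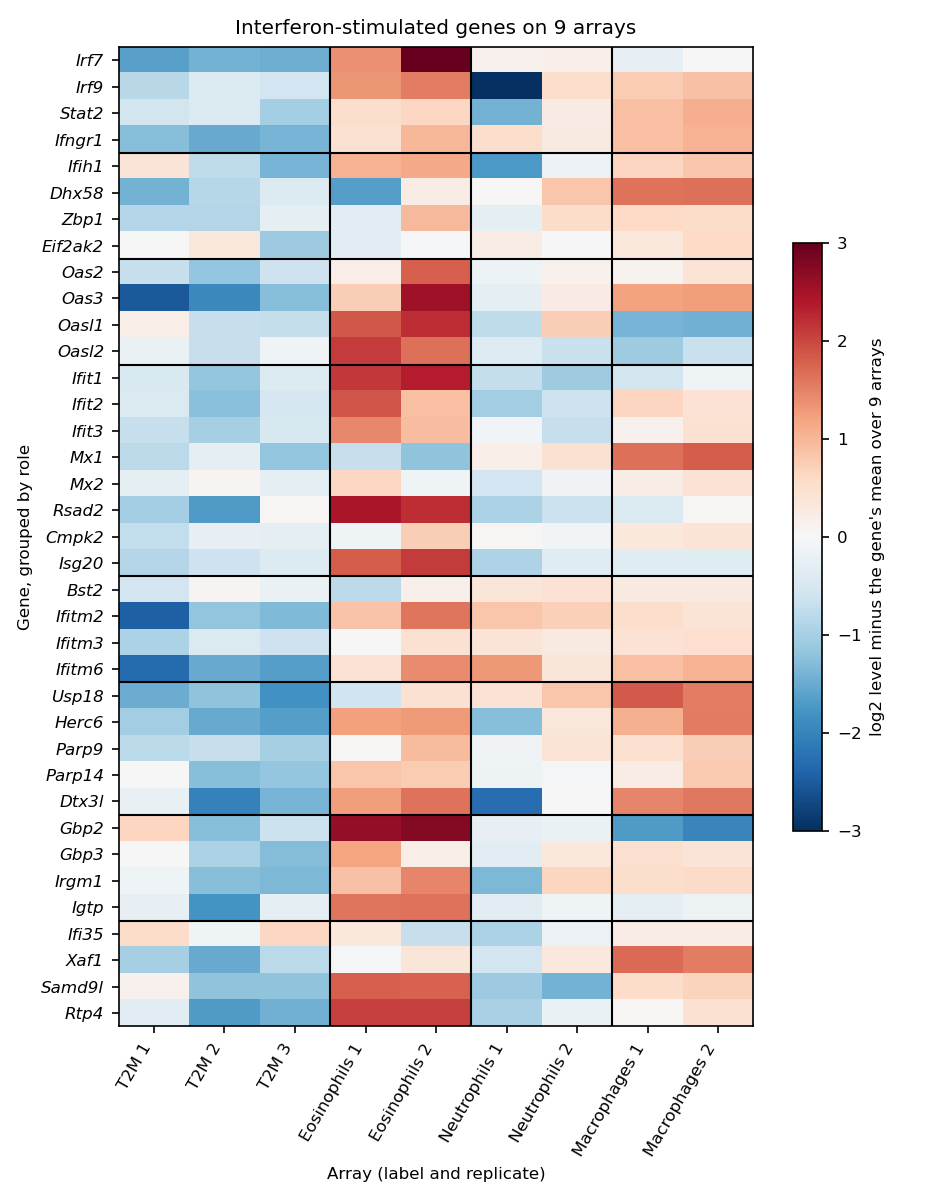
Level of the 37 interferon-stimulated genes (down the page, grouped by role) on each of the 9 arrays (across, T2M arrays on the left), as the deviation of the deposited log2 value from the gene's mean over all arrays, with the colour scale ending at 3 on either side. The 3 T2M columns are below the gene's mean for most genes, the eosinophil-labelled columns above it, and the macrophage-labelled columns stand out for Mx1, Usp18, Dhx58 and Xaf1.

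By mean level, T2M was highest for 1 of the 37 genes (Ifi35, by its kept probe set alone), the eosinophil label for 20, the neutrophil label for 1 (Bst2) and the macrophage label for 15. T2M was lowest for 24, the eosinophil label for 2, the neutrophil label for 8 and the macrophage label for 3. Over all 18193 genes, T2M was highest for 25.2%, the eosinophil label for 23.8%, the neutrophil label for 22.6% and the macrophage label for 28.4%, while T2M was lowest for 16.0%, the eosinophil label for 25.1%, the neutrophil label for 12% and the macrophage label for 46.9%. Of all 37 genes, 16 were highest in the eosinophil label with no array overlapping those of the next label, against 8.27% of all 18193 genes. For the macrophage label this held for 7 of the 37, not far from the 14.8% of all genes. Lowest in T2M, with no overlap with the next label up, were 12 of the 37, against 2.95% of all genes.

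**Figure D2:**
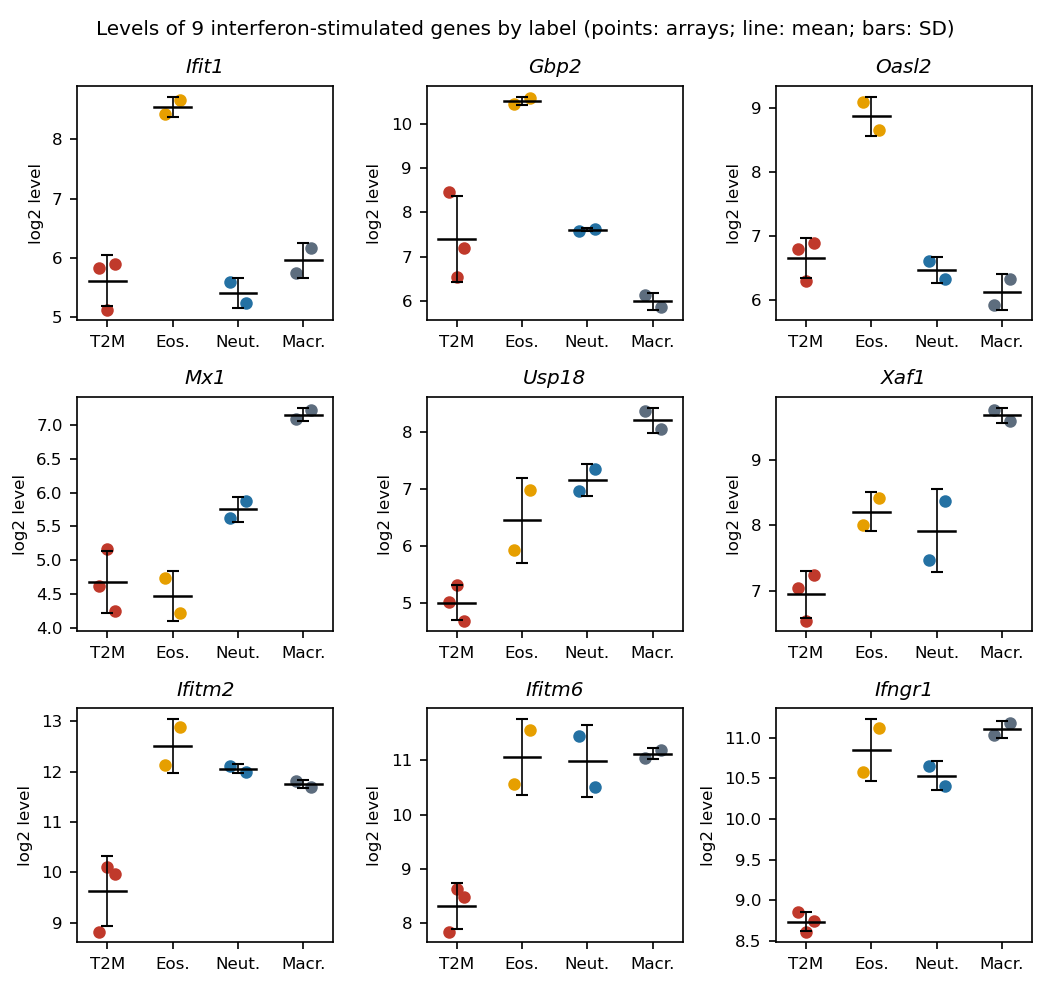
Log2 level (vertical axis, which starts above 0 and differs between panels) of 9 interferon-stimulated genes by label, with 1 point per array, a line at the mean and bars of 1 SD. Ifit1, Gbp2 and Oasl2 peak on the eosinophil-labelled arrays, Mx1, Usp18 and Xaf1 on the macrophage-labelled arrays, and Ifitm2, Ifitm6 and Ifngr1 are lowest on the T2M arrays, at the left of each panel.

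Every one of the 37 genes that was called between T2M cells and the eosinophil label was lower in T2M cells. All differences are log2 differences, the label named first minus the other, with limma's standard error (SE) and p adjusted over all genes. At an adjusted p under 0.05, 17 of the 37 genes were lower in T2M cells and 0 were higher, where 2.89% of all genes were called lower, 1.57% higher and 4.46% either way. At an unadjusted p under 0.05 there were 31 lower and 0 higher. The median log2 difference, T2M minus eosinophil label, was -2.04 for the 37 genes and 0.06 for all genes, and 34 of 37 differences were negative. Without overlap of arrays, 30 of the 37 were lower, against 14% of all genes lower and 19.4% higher. Without eosinophil-labelled replicate 2, fewer of the 37 (all lower) and fewer of all genes were called. The median difference was then -1.92, against 0.07 for all genes.

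T2M cells against the macrophage label gave 14 genes lower and 0 higher, where 10.6% of all genes were lower, 6.53% higher and 17.2% either way. At an unadjusted p under 0.05 there were 25 lower and 1 higher. The median difference was -1.31, against 0.18 for all genes, and 33 of 37 were negative. Of the 37 genes, 30 were lower and 2 higher without overlap of arrays, against 27.7% of all genes lower and 40.7% higher. Without T2M replicate 3 the calls came to 9, all lower, where 9.7% of all genes were called either way. Without either macrophage-labelled array, or with both averaged to 1 sample, fewer of the 37 and fewer of all genes were called. The median difference of the 37 was then -1.40 without replicate 1, -1.24 without replicate 2 and -1.31 with the average.

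T2M cells against the neutrophil label gave 4 genes lower and 0 higher, where 1.57% of all genes were lower, 1.25% higher and 2.82% either way. At an unadjusted p under 0.05 there were 11 lower and 1 higher. The median difference was -0.57, against -0.03 for all genes, and 28 of 37 were negative. Without overlap, 15 were lower and 1 higher, against 15.1% and 10.7% of all genes. No call was left without T2M replicate 3 (0 lower and 0 higher), where 0.616% of all genes were called either way. Without either macrophage-labelled array, fewer of the 37 and fewer of all genes were called. Without neutrophil-labelled replicate 2, fewer of the 37 were called lower, though more of all genes were called. The median difference was then -0.42, against -0.10 for all genes.

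The eosinophil label against the neutrophil label gave 11 genes higher and 0 lower, where 3.55% of all genes were higher, 4.33% lower and 7.88% either way. At an unadjusted p under 0.05 there were 19 higher and 1 lower. The median difference was 1.15, against -0.07 for all genes, and 22 genes were higher and 3 lower without overlap, against 16.7% and 23.7% of all genes. Without either eosinophil-labelled array, fewer of the 37 and fewer of all genes were called, with median differences of 1.31 (without replicate 1) and 1.11 (without replicate 2). Without neutrophil-labelled replicate 1, fewer of the 37 were called, though more of all genes were. The median difference was then 0.83, against 0.06 for all genes.

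Against the macrophage label, the eosinophil label was higher for 9 genes and lower for 4, where 5.89% of all genes were higher, 11.5% lower and 17.4% either way. The median difference, 0.29, was close to the 0.18 of all genes. Without overlap, 16 were higher and 7 lower, against 46.1% and 31.7% of all genes. Without either macrophage-labelled array or without eosinophil-labelled replicate 1, fewer of the 37 and fewer of all genes were called, in both directions. The median difference was 0.28 without macrophage-labelled replicate 1, 0.44 without replicate 2 and 0.39 without eosinophil-labelled replicate 1.

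The neutrophil label against the macrophage label gave 0 calls by limma, where 1.13% of all genes were higher, 1.13% lower and 2.26% either way. At an unadjusted p under 0.05 there were 2 higher and 9 lower. The median difference was -0.60, against 0.17 for all genes, and 26 genes were lower and 5 higher without overlap, against 23.1% and 36.8% of all genes. Without neutrophil-labelled replicate 2, more of the 37 (all lower) and more of all genes were called. The median difference was then -0.75, against 0.22 for all genes. A test of any difference among the 4 labels called 24 of the 37 genes, against 17.8% of all genes.

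**Figure D3:**
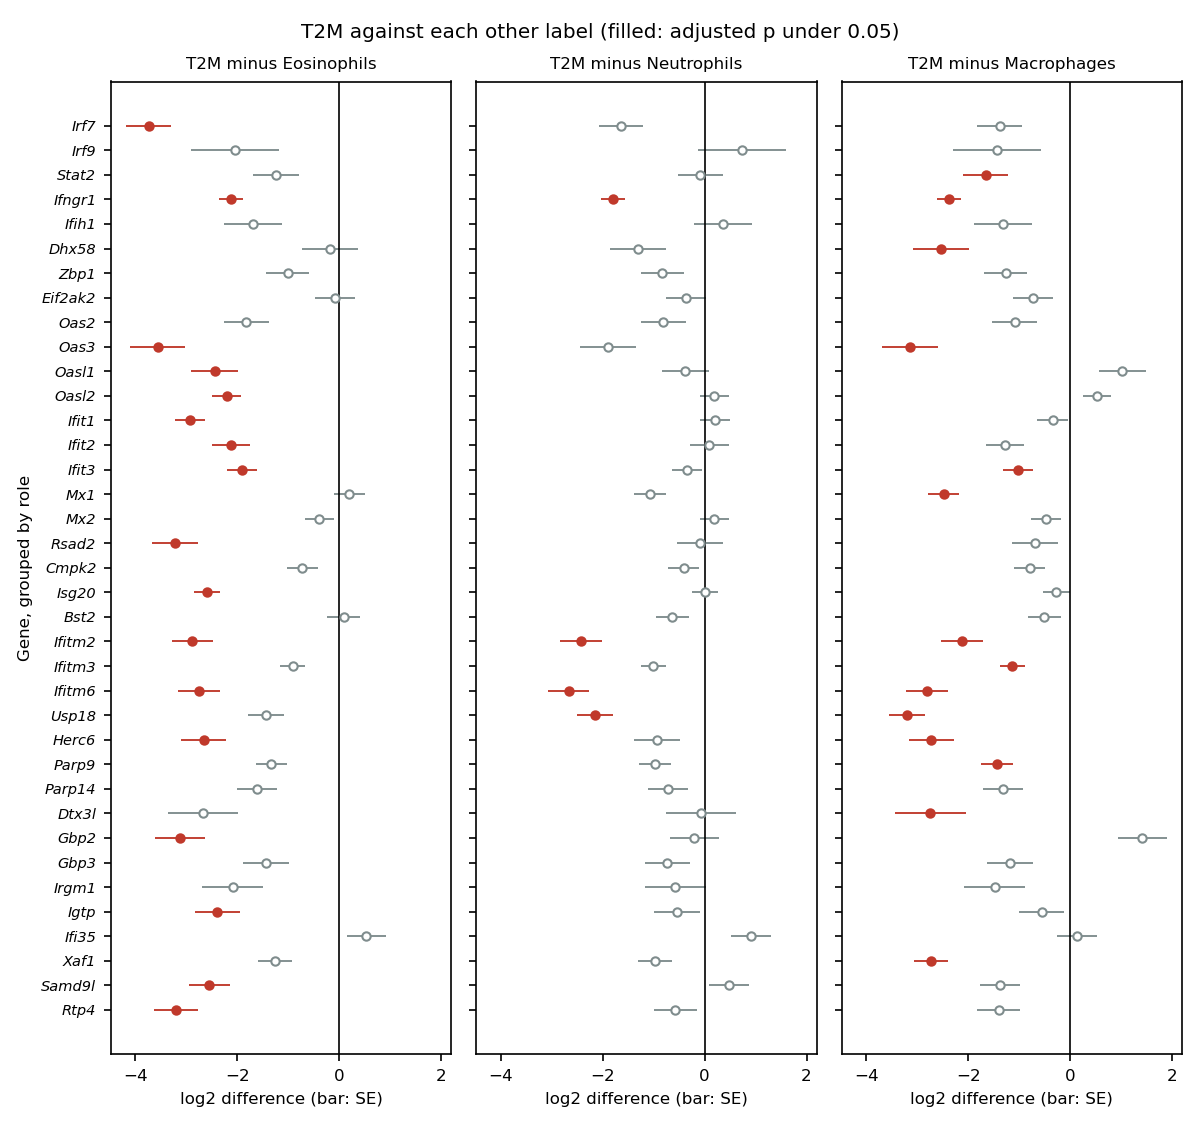
Log2 differences of the 37 genes, T2M minus each other label, with bars of 1 SE and filled points where the adjusted p was under 0.05. Most points lie left of 0 against the eosinophil and macrophage labels, and fewer do so against the neutrophil label, where Usp18, Ifitm2, Ifitm6 and Ifngr1 are filled.

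Of the 4 signalling genes, Irf7 and Ifngr1 were lower in T2M cells than in the eosinophil label, and Stat2 and Ifngr1 were lower than in the macrophage label. For this and the other roles below, 2.89% of all genes were lower in the first of these contrasts and 10.6% in the second. Irf7, the factor that drives transcription of type I interferon genes, stood at a log2 level of 6.74, 6.97 and 6.92 on T2M arrays, 9.75 and 11.47 on eosinophil-labelled arrays, 8.50 and 8.53 on neutrophil-labelled arrays and 8.14 and 8.38 on macrophage-labelled arrays. The T2M arrays lay close together below all others and the eosinophil-labelled arrays above all others. The difference, T2M minus eosinophil label, was -3.74, SE 0.44, adjusted p = 0.00481, a 13.3-fold lower level, while against the neutrophil and macrophage labels it was -1.64 and -1.38, both uncalled (adjusted p = 0.0969 and 0.0632). The eosinophil label was higher than the neutrophil label (2.10, SE 0.48, adjusted p = 0.035), and higher than the macrophage label (2.36, SE 0.48, adjusted p = 0.0127).

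Ifngr1 encodes the ligand-binding chain of the interferon-gamma receptor. Its log2 level was 8.85, 8.61 and 8.74 on T2M arrays, 10.58 and 11.12 on eosinophil-labelled arrays, 10.66 and 10.40 on neutrophil-labelled arrays and 11.03 and 11.18 on macrophage-labelled arrays. The T2M arrays spanned a narrow range, well below all 6 other arrays, which overlapped among themselves. T2M cells were lower than the eosinophil label (-2.12, SE 0.24, adjusted p = 0.00402), the neutrophil label (-1.80, SE 0.24, adjusted p = 0.0117) and the macrophage label (-2.37, SE 0.24, adjusted p = 9.58e-04).

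Stat2 and Irf9 encode members of the ISRE-binding complex. Stat2 was at 7.23, 7.38 and 6.75 on T2M arrays, 8.31 and 8.39 on eosinophil-labelled arrays, 6.36 and 8.04 on neutrophil-labelled arrays and 8.67 and 8.87 on macrophage-labelled arrays. It was lower in T2M cells than in the macrophage label (-1.66, SE 0.45, adjusted p = 0.0397). That call was lost in 5 of 12 alternatives and in 7 of the 9 fits without 1 array. The T2M range lay inside that of the neutrophil-labelled pair. Irf9 was at 7.23, 7.64 and 7.48 on T2M arrays, 9.38 and 9.60 on eosinophil-labelled arrays, 4.84 and 8.59 on neutrophil-labelled arrays and 8.83 and 8.93 on macrophage-labelled arrays. The neutrophil-labelled arrays disagreed on Irf9 by more than any other label did, and no contrast was called, with -2.04 for T2M minus eosinophil label (adjusted p = 0.28).

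The oligoadenylate synthetase family was lower in T2M cells than in the eosinophil label for 3 of 4 genes. Some members of the family, though not all, make products that switch on RNase L to cut RNA. Oas3 was at 4.83, 5.42 and 6.07 on T2M arrays, 8.09 and 9.90 on eosinophil-labelled arrays, 7.07 and 7.60 on neutrophil-labelled arrays and 8.55 and 8.60 on macrophage-labelled arrays. All T2M arrays lay below all other arrays. The T2M label was lower than the eosinophil label (-3.56, SE 0.54, adjusted p = 0.0113), and lower than the macrophage label (-3.14, SE 0.54, adjusted p = 0.00802). Oas2 had the same order of labels, with -1.82 for T2M minus eosinophil label, uncalled (adjusted p = 0.0578).

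Oasl1, which in mouse restrains translation of Irf7, and Oasl2 behaved otherwise toward the macrophage label. Oasl1 was at 6.88, 5.98 and 5.94 on T2M arrays, 8.52 and 8.88 on eosinophil-labelled arrays, 5.89 and 7.40 on neutrophil-labelled arrays and 5.27 and 5.22 on macrophage-labelled arrays. The eosinophil-labelled arrays were the highest, and the macrophage-labelled arrays the lowest. The eosinophil label was higher than the macrophage label (3.46, SE 0.51, adjusted p = 0.0032), and T2M minus eosinophil label was -2.44, SE 0.46, adjusted p = 0.0254. Oasl2 was at 6.79, 6.30 and 6.88 on T2M arrays, 9.08 and 8.65 on eosinophil-labelled arrays, 6.61 and 6.32 on neutrophil-labelled arrays and 5.93 and 6.33 on macrophage-labelled arrays. Only the eosinophil-labelled arrays stood apart, and T2M minus macrophage label was 0.53 (adjusted p = 0.194).

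Of the IFIT, MX and viperin group, 5 of 8 genes were lower in T2M cells than in the eosinophil label, and the same 5 (Rsad2, Ifit1, Ifit2, Ifit3 and Isg20) were higher in the eosinophil than in the neutrophil label. Ifit1 encodes a protein that binds RNA caps lacking the host's methyl marks, and its promoter carries 2 ISRE cores in the sequence above. Its level was 5.83, 5.13 and 5.90 on T2M arrays, 8.42 and 8.66 on eosinophil-labelled arrays, 5.59 and 5.24 on neutrophil-labelled arrays and 5.75 and 6.17 on macrophage-labelled arrays. The eosinophil-labelled arrays lay more than 2 log2 units above the 7 others, which overlapped. The T2M minus eosinophil label difference was -2.92, SE 0.30, adjusted p = 0.00259. The eosinophil label exceeded the neutrophil label (3.13, SE 0.33, adjusted p = 0.00216) and the macrophage label (2.58, SE 0.33, adjusted p = 0.00181).

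Rsad2 encodes viperin, an enzyme that makes a chain-terminating nucleotide. It was at 7.47, 6.79 and 8.52 on T2M arrays, 10.93 and 10.70 on eosinophil-labelled arrays, 7.52 and 7.83 on neutrophil-labelled arrays and 8.04 and 8.51 on macrophage-labelled arrays. T2M arrays spread widely and overlapped the neutrophil- and macrophage-labelled arrays, whereas the eosinophil-labelled pair lay above all others. In T2M cells it was lower than in the eosinophil label (-3.22, SE 0.46, adjusted p = 0.00915), and eosinophil minus neutrophil label was 3.13, SE 0.50, adjusted p = 0.00944.

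Isg20, an RNA exonuclease, was at 7.18, 7.45 and 7.66 on T2M arrays, 9.88 and 10.16 on eosinophil-labelled arrays, 7.14 and 7.71 on neutrophil-labelled arrays and 7.70 and 7.70 on macrophage-labelled arrays. The eosinophil-labelled pair stood apart from 7 arrays within a narrow band. T2M cells were lower than the eosinophil label (-2.59, SE 0.26, adjusted p = 0.00239), and T2M minus macrophage label was -0.27 (adjusted p = 0.45). Ifit2 and Ifit3, partners of Ifit1 in RNA-binding complexes, were also lower in T2M cells than in the eosinophil label (Ifit2, -2.12, SE 0.37, adjusted p = 0.0197, and Ifit3, -1.91, SE 0.29, adjusted p = 0.0119), and Ifit3 was also lower than in the macrophage label (-1.03, SE 0.29, adjusted p = 0.0472). That last call was lost in 7 of 12 alternatives and in 7 of the 9 fits without 1 array.

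Mx1 gave a different order. It encodes a dynamin-like GTPase against influenza viruses, and most laboratory strains, BALB/c among them, carry a defective allele, so the probe set reports the transcript only. Its level was 4.62, 5.16 and 4.24 on T2M arrays, 4.73 and 4.21 on eosinophil-labelled arrays, 5.62 and 5.88 on neutrophil-labelled arrays and 7.08 and 7.23 on macrophage-labelled arrays. The macrophage-labelled arrays were the highest, the neutrophil-labelled next, and the T2M and eosinophil-labelled arrays overlapped at the bottom. The T2M label was lower than the macrophage label (-2.48, SE 0.31, adjusted p = 0.00226), and the eosinophil label was lower than the macrophage label (-2.68, SE 0.34, adjusted p = 0.00179). For Mx1, T2M minus eosinophil label was 0.20, SE 0.31, adjusted p = 0.856. Mx2 lay between 3.59 and 4.77 on all arrays, with no contrast called.

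Among the ISG15 and PARP/ubiquitin genes, 4 of 5 were lower in T2M cells than in the macrophage label. Usp18, which removes ISG15 from proteins and damps signalling at the type I interferon receptor, was at 5.02, 5.32 and 4.69 on T2M arrays, 5.92 and 6.97 on eosinophil-labelled arrays, 6.96 and 7.35 on neutrophil-labelled arrays and 8.36 and 8.05 on macrophage-labelled arrays. The T2M arrays were the lowest and the macrophage-labelled arrays the highest. T2M cells were lower than the macrophage label (-3.20, SE 0.35, adjusted p = 0.00132), and lower than the neutrophil label (-2.15, SE 0.35, adjusted p = 0.0238). The eosinophil label was lower than the macrophage label (-1.76, SE 0.39, adjusted p = 0.0173), while T2M minus eosinophil label was -1.44, uncalled (adjusted p = 0.0601).

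Herc6, which attaches ISG15 to proteins in mouse, was at 5.13, 4.68 and 4.53 on T2M arrays, 7.41 and 7.46 on eosinophil-labelled arrays, 4.91 and 6.51 on neutrophil-labelled arrays and 7.26 and 7.75 on macrophage-labelled arrays. T2M arrays lay below all others except neutrophil-labelled replicate 1. The T2M label was lower than the eosinophil label (-2.65, SE 0.44, adjusted p = 0.0159) and lower than the macrophage label (-2.72, SE 0.44, adjusted p = 0.00634). Dtx3l and Parp9 form a ubiquitin ligase complex. Dtx3l was at 7.66, 5.86 and 6.48 on T2M arrays, 9.15 and 9.53 on eosinophil-labelled arrays, 5.60 and 7.88 on neutrophil-labelled arrays and 9.34 and 9.47 on macrophage-labelled arrays. By this kept probe set the neutrophil-labelled arrays lay on both sides of the T2M values, and T2M minus macrophage label was -2.74, SE 0.69, adjusted p = 0.0311. On the other Dtx3l probe set the neutrophil-labelled arrays, at 6.86 and 7.48, lay above the T2M arrays, at 5.35, 5.29 and 6.71. Parp9 was also lower in T2M cells than in the macrophage label (-1.44, SE 0.31, adjusted p = 0.0189), and its T2M arrays, at 7.24, 7.34 and 7.05, lay below all others. Parp14, a mono-ADP-ribosyltransferase, was called in no contrast, with -1.60 against the eosinophil label (adjusted p = 0.0609).

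Of the 4 membrane restriction factors, 2 were lower in T2M cells than in each of the 3 other labels. Ifitm2, which hinders virus fusion in endosomes, was at 8.82, 10.10 and 9.97 on T2M arrays, 12.12 and 12.89 on eosinophil-labelled arrays, 12.12 and 11.998 on neutrophil-labelled arrays and 11.81 and 11.69 on macrophage-labelled arrays. Each T2M array was lower than each other array by more than 1 log2 unit. In T2M cells it was lower than in the eosinophil label (-2.88, SE 0.41, adjusted p = 0.00915), the neutrophil label (-2.43, SE 0.41, adjusted p = 0.0255) and the macrophage label (-2.12, SE 0.41, adjusted p = 0.0121).

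Ifitm6, a related gene of the same cluster, was at 7.84, 8.63 and 8.48 on T2M arrays, 10.57 and 11.56 on eosinophil-labelled arrays, 11.45 and 10.51 on neutrophil-labelled arrays and 11.05 and 11.19 on macrophage-labelled arrays. Here too the T2M arrays did not overlap with any other. The differences were -2.74, SE 0.41, adjusted p = 0.0103 against the eosinophil label, -2.66, SE 0.41, adjusted p = 0.0192 against the neutrophil label and -2.80, SE 0.41, adjusted p = 0.00414 against the macrophage label. Ifitm3, which blocks entry of many viruses, was likewise lowest on T2M arrays, at 11.46, 11.98 and 11.79, and only T2M minus macrophage label was called (-1.14, SE 0.24, adjusted p = 0.0183). Bst2, which encodes tetherin, ranged from 7.09 to 8.31 and was called in no contrast. Genes of the Ifitm cluster are close in sequence, and signal shared between their probe sets was not tested.

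Interferon-inducible GTPases act on membranes of pathogen-containing vacuoles, and 2 of 4 were lower in T2M cells than in the eosinophil label. Gbp2 was at 8.46, 6.55 and 7.19 on T2M arrays, 10.46 and 10.59 on eosinophil-labelled arrays, 7.59 and 7.63 on neutrophil-labelled arrays and 6.12 and 5.85 on macrophage-labelled arrays. The eosinophil-labelled arrays were the highest and the macrophage-labelled arrays the lowest. T2M cells were lower than the eosinophil label (-3.12, SE 0.48, adjusted p = 0.0119), and eosinophil minus macrophage label was 4.53, SE 0.53, adjusted p = 0.00127, a 23.1-fold higher level in the eosinophil label. Igtp was at 8.56, 6.99 and 8.51 on T2M arrays, 10.40 and 10.42 on eosinophil-labelled arrays, 8.45 and 8.68 on neutrophil-labelled arrays and 8.52 and 8.64 on macrophage-labelled arrays. The eosinophil-labelled pair lay above the other arrays, which overlapped. The T2M minus eosinophil label difference was -2.39, SE 0.45, adjusted p = 0.0242. Gbp3 and Irgm1 had negative differences in the same contrast, -1.44 and -2.09, which were uncalled (adjusted p = 0.131 and 0.0975).

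The sensors of foreign nucleic acid showed the fewest calls. Dhx58 encodes LGP2, a helicase that modulates its relatives, and its level was 4.72, 5.28 and 5.74 on T2M arrays, 4.48 and 6.36 on eosinophil-labelled arrays, 6.14 and 6.97 on neutrophil-labelled arrays and 7.76 and 7.78 on macrophage-labelled arrays. The macrophage-labelled arrays were the highest, and the eosinophil-labelled replicates were far apart. T2M minus macrophage label was -2.53, SE 0.55, adjusted p = 0.019, and eosinophil minus macrophage label was -2.35, SE 0.60, adjusted p = 0.0315. Ifih1, which encodes the long RNA sensor MDA5, was at 7.95, 6.80 and 6.18 on T2M arrays, 8.62 and 8.71 on eosinophil-labelled arrays, 5.84 and 7.38 on neutrophil-labelled arrays and 8.21 and 8.38 on macrophage-labelled arrays. Its T2M arrays spread over more than 1 log2 unit, and no contrast was called (T2M minus eosinophil label, -1.69, SE 0.57, adjusted p = 0.159). Eif2ak2, the kinase PKR that halts translation, and Zbp1, a Z-form nucleic acid sensor, were called in no contrast, with T2M minus macrophage label at -0.72 and -1.26 (adjusted p = 0.209 and 0.0733).

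Of the remaining genes, Xaf1, which promotes cell death by binding the inhibitor XIAP, was at 7.04, 6.54 and 7.25 on T2M arrays, 7.99 and 8.42 on eosinophil-labelled arrays, 7.47 and 8.36 on neutrophil-labelled arrays and 9.76 and 9.59 on macrophage-labelled arrays. By this kept probe set the macrophage-labelled pair lay more than 1 log2 unit above all other arrays. T2M minus macrophage label was -2.73, SE 0.34, adjusted p = 0.00202, and eosinophil minus macrophage label was -1.47, SE 0.37, adjusted p = 0.0289. On the other Xaf1 probe set the macrophage-labelled pair, at 8.70 and 9.17, was highest by less. There the neutrophil-labelled arrays were at 8.49 and 7.68, the eosinophil-labelled at 8.30 and 7.56 and the T2M arrays at 7.57, 5.73 and 6.20. Samd9l, linked to endosome traffic and growth control, was at 8.60, 7.26 and 7.27 on T2M arrays, 10.27 and 10.23 on eosinophil-labelled arrays, 7.40 and 7.07 on neutrophil-labelled arrays and 9.03 and 9.14 on macrophage-labelled arrays. The order was eosinophil label, macrophage label and then T2M and neutrophil label, which overlapped. In T2M cells it was lower than in the eosinophil label (-2.54, SE 0.40, adjusted p = 0.0129), and eosinophil minus neutrophil label was 3.02, SE 0.44, adjusted p = 0.00666.

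Rtp4, a transport protein for cell surface receptors, was at 8.39, 7.01 and 7.27 on T2M arrays, 10.75 and 10.76 on eosinophil-labelled arrays, 7.74 and 8.51 on neutrophil-labelled arrays and 8.74 and 9.17 on macrophage-labelled arrays. The eosinophil-labelled pair agreed closely above all others. The T2M label was lower than the eosinophil label (-3.20, SE 0.43, adjusted p = 0.00731). Ifi35 was the only gene with its highest mean in T2M cells, at 11.24, 10.57 and 11.31 on T2M arrays, 11.02 and 9.99 on eosinophil-labelled arrays, 9.74 and 10.52 on neutrophil-labelled arrays and 10.91 and 10.91 on macrophage-labelled arrays by its kept probe set, where the labels overlapped and no contrast was called. Its 2 other probe sets turned that order, with the lowest mean in T2M cells. The first was at 8.22, 7.80 and 7.68 on T2M arrays, 9.11 and 9.09 on eosinophil-labelled arrays, 8.81 and 8.27 on neutrophil-labelled arrays and 8.70 and 8.41 on macrophage-labelled arrays, so the T2M arrays lay below all others, and the second overlapped between labels. Neither was called between T2M cells and another label, and T2M minus eosinophil label was -1.20, SE 0.27, adjusted p = 0.0536 for the first and -0.02, SE 0.52, adjusted p = 0.995 for the second. Cmpk2, a mitochondrial nucleotide kinase gene next to Rsad2, was called nowhere by its kept probe set, with -0.72 against the eosinophil label (adjusted p = 0.263).

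Calls were read together across labels. Genes higher in the eosinophil label than in each other label numbered 8, namely Irf7, Oasl1, Oasl2, Rsad2, Ifit1, Isg20, Gbp2 and Rtp4, where 1.56% of all genes had that pattern. Of these 8, the pattern held for 4 without eosinophil-labelled replicate 1 (Irf7, Oasl2, Ifit1 and Isg20, with Oas2 added), 3 without replicate 2 (Oasl2, Ifit1 and Isg20), 4 without either macrophage-labelled array, and 5 without neutrophil-labelled replicate 1. Lower in T2M cells than in each other label were 3 genes, Ifitm2, Ifitm6 and Ifngr1, against 0.22% of all genes. That count was 0 without T2M replicate 3 (0.0495% of all genes) and with array weights (0.0275%). It was also 0 with only the 2 labels compared (0%) and with the replicate block (0.022%). The mean of all probe sets gave 5 (0.253%), and shifting arrays to a common median gave 4 (0.28%). Of the 3, only Ifngr1 was left without either macrophage-labelled array, and also without eosinophil-labelled replicate 2, where Irf7 entered. All 3 held without eosinophil-labelled replicate 1, where Irf7 and Usp18 entered. For the first pattern, neutrophil markers moved alongside, with 7 of 13 lower in T2M cells than in the eosinophil label (2.89% of all genes). In the eosinophil label 9 were higher than in the neutrophil label (3.55%) and 12 higher than in the macrophage label (5.89%). For the second, eosinophil markers moved the other way, with 5 of 9 higher in T2M cells than in the eosinophil label (1.57%). Against the neutrophil label 5 were higher in T2M cells, and against the macrophage label 9, where 1.25% and 6.53% of all genes were higher. The part of either marker list in these results was not tested.

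Higher in the macrophage label than in both T2M cells and the eosinophil label were 4 genes, Mx1, Usp18, Dhx58 and Xaf1, against 6.95% of all genes. Only Mx1 was left without eosinophil-labelled replicate 1 or without either macrophage-labelled array. Dendritic cell markers moved alongside, with 4 of 7 lower in T2M cells than in the macrophage label (10.6% of all genes). In the eosinophil label 5 were lower than in the macrophage label (11.5%). The part of these markers was not tested. In all, 6 genes, namely Oas3, Ifit3, Ifitm2, Ifitm6, Herc6 and Ifngr1, were higher in both the eosinophil and the macrophage label than in T2M cells, against 0.643% of all genes. Without either macrophage-labelled array only Ifngr1 was left. Fewer genes, of which only Ifngr1 was among the 6, were left without eosinophil-labelled replicate 2. There were more without either neutrophil-labelled array, and all genes moved likewise in both cases. The count was 10 without T2M replicate 1 (0.929% of all genes) and 4 without T2M replicate 2 (0.297%) or 3 (0.28%). It was 4 with the replicate block (0.253%), 5 with an intensity trend (0.478%) and 9 without dim genes (1.13%). It was 13 with arrays shifted to a common median (0.929%), 14 with the mean of all probe sets (0.951%) and 19 with array weights (2.13%). The other patterns were empty, with 0 genes higher in T2M cells than in each other label (0.302% of all genes), 0 lower in the eosinophil label than in each other (0.693%), 0 higher in the macrophage label than in each other (0.874%) and 0 higher in the neutrophil label than in each other (0.0879%). Of the 37 genes, 25 were called in at least 1 contrast and 12 in none. Contrasts that share a label share its arrays, so these counts are not independent.

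Some calls held under every alternative and with each array left out in turn. For T2M minus eosinophil label these were Irf7, Oasl2, Ifit1, Isg20 and Ifngr1. For T2M minus macrophage label they were Mx1, Usp18, Xaf1 and Ifngr1. None of the 4 calls of T2M minus neutrophil label held throughout. Lost in most of the 9 fits without 1 array were Oasl1 for T2M minus eosinophil label and Ifitm2 for T2M minus neutrophil label. So were Stat2 and Ifit3 for T2M minus macrophage label, and Irf7 and Oasl1 for eosinophil minus neutrophil label.

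Other probe sets of the same genes were tested over all 34945 probe sets with 1 symbol, where 3.54% were called either way for T2M minus eosinophil label, 2.24% for T2M minus neutrophil label, 14.9% for T2M minus macrophage label, 6.58% for eosinophil minus neutrophil label, 14.9% for eosinophil minus macrophage label and 1.89% for neutrophil minus macrophage label. The second Cmpk2 probe set, dimmer than the kept one, was at 4.39, 3.18 and 4.34 on T2M arrays, 7.51 and 6.57 on eosinophil-labelled arrays, 3.27 and 3.86 on neutrophil-labelled arrays and 6.47 and 6.69 on macrophage-labelled arrays. It was high on eosinophil- and macrophage-labelled arrays and low on the rest. T2M minus eosinophil label was -3.07, SE 0.44, adjusted p = 0.012, and T2M minus macrophage label was -2.61, SE 0.44, adjusted p = 0.00928. The second Stat2 probe set was lower in T2M cells than in all 3 labels (-2.21, SE 0.42, adjusted p = 0.0315 against the eosinophil label, -2.63, SE 0.42, adjusted p = 0.0276 against the neutrophil label and -3.0, SE 0.42, adjusted p = 0.00468 against the macrophage label).

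The second Gbp2 probe set gave -3.27, SE 0.62, adjusted p = 0.0296 for T2M minus eosinophil label, close to the kept one, whose probes can match related transcripts. All 4 Herc6 probe sets were lower in T2M cells than in the macrophage label. The second Rtp4 probe set was uncalled, with -1.28, SE 0.45, adjusted p = 0.196 for T2M minus eosinophil label, and of the 2 further Rsad2 probe sets 1 was called in that contrast (-3.55, SE 0.40, adjusted p = 0.00488) and 1 was not (-2.45, SE 0.56, adjusted p = 0.0574).

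**Figure D4:**
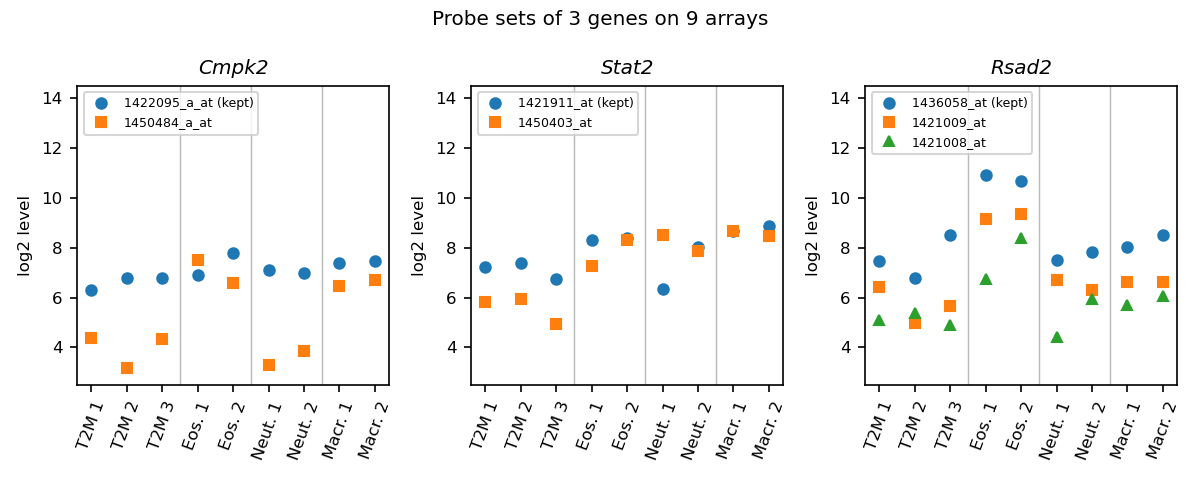
Log2 level (vertical axis) of each probe set of Cmpk2, Stat2 and Rsad2 on the 9 arrays (horizontal axis, T2M arrays on the left), with circles for the kept probe set and squares or triangles for the others. The second Cmpk2 probe set is low on T2M and neutrophil-labelled arrays, the second Stat2 probe set is low on T2M arrays alone, and all 3 Rsad2 probe sets are highest on the eosinophil-labelled arrays.

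The other genes of the pathway were read from lists of 6 kinds. Over all genes, 4.46% were called either way for T2M minus eosinophil label, 2.82% for T2M minus neutrophil label and 17.2% for T2M minus macrophage label. Interferon genes themselves (9 of 15 measured, with near-identical Ifna copies that a probe set cannot tell apart) gave 0 calls by limma in any contrast, and between 0 and 4 of them had an unadjusted p under 0.05. Ifnb1 was at 4.45, 4.34 and 4.17 on T2M arrays, 4.53 and 4.39 on eosinophil-labelled arrays, 5.59 and 4.53 on neutrophil-labelled arrays and 3.80 and 3.71 on macrophage-labelled arrays. Ifng was at 3.30, 4.21 and 3.81 on T2M arrays, 3.58 and 3.45 on eosinophil-labelled arrays, 3.97 and 2.97 on neutrophil-labelled arrays and 3.42 and 3.45 on macrophage-labelled arrays. For both, T2M arrays overlapped with the eosinophil-labelled arrays. Of the 7 other measured ligands, Ifna1, Ifna2, Ifna4, Ifna5, Ifna9, Ifna11 and Ifnab, the lowest level on any array was 2.65, for Ifna4 on a macrophage-labelled array. The highest was 8.51, for Ifna1 on eosinophil-labelled replicate 1, where replicate 2 had 6.67. Among receptors and kinases (8 of 8), 3 were lower in T2M cells than in the eosinophil label and 0 higher. Ifnlr1, the specific chain of the type III interferon receptor, was at 3.97, 4.14 and 4.17 on T2M arrays, 7.62 and 8.98 on eosinophil-labelled arrays, 4.19 and 3.95 on neutrophil-labelled arrays and 3.93 and 4.26 on macrophage-labelled arrays. The eosinophil-labelled arrays stood apart, and the 7 others lay together at a low level. The T2M minus eosinophil label difference was -4.21, SE 0.37, adjusted p = 0.00165. Ifngr2, the second chain of the interferon-gamma receptor, was lower in T2M cells than in the eosinophil label (-1.12, SE 0.22, adjusted p = 0.0272) and the macrophage label (-0.87, SE 0.22, adjusted p = 0.0302), with -1.0, SE 0.22, adjusted p = 0.0528 against the neutrophil label. Jak2, a kinase of that receptor, was lower in T2M cells than in the eosinophil label (-1.67, SE 0.30, adjusted p = 0.0217).

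The type I receptor chain Ifnar1 went the other way against the macrophage label, higher in T2M cells (1.64, SE 0.36, adjusted p = 0.019), and the receptor kinase Tyk2 was lower there (-1.06, SE 0.23, adjusted p = 0.0179). Ifnar2 and Jak1 were called in no contrast, and Il10rb, the shared chain of the type III receptor, in none with T2M cells. Of the STAT and IRF factors (7 of 8), 2 were lower in T2M cells than in the eosinophil label, 1 than in the neutrophil label and 4 than in the macrophage label, with 0 higher. Irf8, a factor of monocyte and dendritic cell development, was at 6.59, 6.65 and 7.53 on T2M arrays, 5.61 and 6.28 on eosinophil-labelled arrays, 8.80 and 9.27 on neutrophil-labelled arrays and 9.69 and 9.56 on macrophage-labelled arrays. T2M and eosinophil-labelled arrays were low, and neutrophil- and macrophage-labelled arrays high. T2M minus macrophage label was -2.70, SE 0.35, adjusted p = 0.00273. Irf2, an antagonist of ISRE activation, was lower in T2M cells than in the eosinophil label (-1.30, SE 0.24, adjusted p = 0.0246) and the macrophage label (-0.85, SE 0.24, adjusted p = 0.0474). Stat4, a STAT of interleukin-12 and type I interferon signalling, was lower than in the eosinophil label (-1.95, SE 0.32, adjusted p = 0.0149). Irf5 and Irf3, which act downstream of sensors, were lower than in the macrophage label (Irf5, -2.30, SE 0.57, adjusted p = 0.0305, and Irf3, -1.74, SE 0.29, adjusted p = 0.00713).

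Of sensors and adaptors upstream of interferon (9 of 11), 2 were lower in T2M cells than in the eosinophil label, Ikbke, a kinase that activates IRF factors (-2.51, SE 0.33, adjusted p = 0.00678), and Ddx58, which encodes RIG-I (-1.60, SE 0.28, adjusted p = 0.0205). Mavs, the adaptor of RIG-I, was lower than in the macrophage label (-1.78, SE 0.38, adjusted p = 0.0176), as was Tlr9, a sensor of DNA (-1.60, SE 0.34, adjusted p = 0.0185). Among negative regulators (9 of 9), Socs3 was higher in T2M cells than in the macrophage label (2.98, SE 0.32, adjusted p = 0.00117) and Ptpn6 lower (-1.43, SE 0.41, adjusted p = 0.0462), and 0 were called against the eosinophil or the neutrophil label, where 4 and 1 had an unadjusted p under 0.05.

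Further interferon-induced genes (46 of 55) gave 0 higher and 11 lower in T2M cells than in the eosinophil label, against 1.57% and 2.89% of all genes. There were 2 higher and 2 lower than in the neutrophil label, against 1.25% and 1.57%. Against the macrophage label there were 3 higher and 15 lower, where 6.53% and 10.6% of all genes were called, so the 3 higher were near the share of all genes. Slfn4, a myeloid Schlafen gene, was at 8.55, 8.22 and 9.42 on T2M arrays, 12.87 and 12.81 on eosinophil-labelled arrays, 9.62 and 7.61 on neutrophil-labelled arrays and 7.34 and 6.99 on macrophage-labelled arrays. The eosinophil-labelled arrays lay above all others. In T2M cells it was lower than in the eosinophil label (-4.11, SE 0.57, adjusted p = 0.00836), as were Slfn1 (-4.68, SE 0.60, adjusted p = 0.00647) and Ddx60, a helicase gene (-2.61, SE 0.58, adjusted p = 0.0456). Ifitm1, unlike its relatives Ifitm2 and Ifitm6, was lower in T2M cells than in the eosinophil label (-2.69, SE 0.24, adjusted p = 0.00165) but higher than in the neutrophil label (1.38, SE 0.24, adjusted p = 0.0269) and the macrophage label (2.97, SE 0.24, adjusted p = 3.65e-04).

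The immunoproteasome genes Psmb8 and Psmb9 were lower in T2M cells than in the macrophage label (Psmb8, -3.03, SE 0.64, adjusted p = 0.0166, and Psmb9, -3.03, SE 0.50, adjusted p = 0.00659). Cxcl9, a chemokine induced mainly by interferon-gamma, was lower than in the macrophage label (-3.26, SE 0.75, adjusted p = 0.0234). Nmi, a STAT-binding protein, was lower in T2M cells than in the eosinophil label (-1.47, SE 0.27, adjusted p = 0.0218), the neutrophil label (-1.77, SE 0.27, adjusted p = 0.0183) and the macrophage label (-1.93, SE 0.27, adjusted p = 0.00339). Ifi27l2a was lower in T2M cells than in the neutrophil label (-1.82, SE 0.39, adjusted p = 0.0491) and the macrophage label (-2.75, SE 0.39, adjusted p = 0.00366). Gbp6, a guanylate-binding GTPase gene, was higher in T2M cells than in the neutrophil label (1.48, SE 0.26, adjusted p = 0.0276) and the macrophage label (1.76, SE 0.26, adjusted p = 0.00427). With Ifitm1 and Gbp6, the third gene higher than in the macrophage label was Iigp1, another interferon-inducible GTPase gene (2.87, SE 0.60, adjusted p = 0.0163).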

How the data were processed

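The deposited table holds log2 expression values, 1 per probe set and array, and RMA, affy and limma were used per the submitters' processing notes, with versions and settings not given in the sources used here. Of 45101 probe sets, 64 controls were left out, and the platform annotation gave 1 symbol for 34945, several for 932 and none for 9160. RefSeq (GRCm38.p6) held 34741 of them by gene ID, which changed 0 symbols. Members and gene lists were chosen with earlier results of these data known, and genes are named from the members and, for other pathway genes, from up to 4 called genes with the largest differences per list and T2M contrast. Iigp1 was named after its values were seen.

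Labels were compared with limma 3.58.1 in R 4.3.3 on all 9 arrays (lmFit on group means, eBayes, two-sided), with 5 residual and 3.26 prior degrees of freedom and a prior SD of 0.328. Calls were made at 0.05 after Benjamini-Hochberg adjustment over 18193 genes. Differences are first label minus second, with limma's SE, and a log2 difference of 1 was read as 2-fold, as for RMA values. Each array was taken as a separate pool, and the number of arrays limits the precision. Alternatives covered probe sets, dim genes, scaling, the prior, array weights, the arrays fitted and the replicate block. Figures were drawn with matplotlib 3.10.9.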

Additional observations from a re-analysis of the deposited data

How the results depend on the processing

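No difference called in the main setting was called in the opposite direction under any alternative tried. Array weights gave 26 genes lower for T2M minus eosinophil label, where 7.84% of all genes were called either way. For T2M minus macrophage label they gave 2 higher and 27 lower, where 55.9% of all genes were called. They gave 0 lower for T2M minus neutrophil label, against 0.291% of all genes, and 6 higher for eosinophil minus neutrophil label, against 2.89%. Fitting only the labels compared gave 0 lower for T2M minus neutrophil label, where 0% of all genes were called. In that setting 5 were higher for eosinophil minus neutrophil label, where 1.18% of all genes were called. Averaging the macrophage-labelled arrays to 1 sample gave fewer calls in every contrast with calls among the 37, for the 37 and for all genes. The median differences of the 37 genes stayed at -1.31 for T2M minus macrophage and -0.57 for T2M minus neutrophil label. They stayed at 0.29 for eosinophil minus macrophage, -2.04 for T2M minus eosinophil and 1.15 for eosinophil minus neutrophil label. Averaging all probe sets of a gene gave 1 lower for eosinophil minus neutrophil label, where 9.97% of all genes were called. It gave 3 lower for neutrophil minus macrophage label, where 3.3% were called, and an intensity trend gave 1 lower for the first of these (7.34%). For neutrophil minus macrophage label, 1 lower call appeared without dim genes (3.65% of genes called), after shifting arrays to a common median (2.31%) and after quantile normalization (2.34%). With the 2 arrays of raised actin difference (T2M replicate 1 and eosinophil-labelled replicate 1) left out, 1 gene was higher and 1 lower in that contrast, and 1 was lower for eosinophil minus macrophage label. Calls over all genes also rose or fell between settings and with single arrays left out, and the causes were not tested. The ranges below, with each array left out, thus cannot be read apart from shifts in calls over all genes. Without T2M replicate 1, 2 or 3, T2M minus eosinophil label gave 20, 14 or 15 lower of the 37. Of all genes, 4.75%, 2.17% or 2.18% were then called either way. For T2M minus macrophage label 17, 11 or 9 were lower and 0, 1 or 0 higher (16.6%, 10.7% or 9.7% of all genes). The alternatives with averaged macrophage-labelled arrays, the raised actin differences, single probe sets and crossed replicate numbers were chosen after seeing the data.

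With each array left out in turn, T2M minus eosinophil label gave 0 higher and 7 to 23 lower, T2M minus neutrophil label 0 to 1 higher and 0 to 5 lower, and T2M minus macrophage label 0 to 1 higher and 4 to 19 lower. Eosinophil minus neutrophil label gave 7 to 15 higher and 0 to 1 lower, eosinophil minus macrophage label 5 to 10 higher and 1 to 4 lower, and neutrophil minus macrophage label 0 to 1 higher and 0 to 7 lower. The test among all labels gave 16 to 28.

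Labels share replicate numbers, but nothing in them says that a number marks a shared pool or day. Residuals of same-numbered arrays correlated at 0.50 and 0.44 between T2M and eosinophil label and at -0.18 to 0.05 in the other pairs, so the replicate block is given as an alternative only. With the block, 13 genes were lower for T2M minus eosinophil label, 0 for T2M minus neutrophil label and 10 for T2M minus macrophage label. Of all genes, 1.98%, 0.236% and 9.53% were called either way there. For eosinophil minus neutrophil label 10 were higher, where 6.09% of all genes were called. With the neutrophil-labelled numbers crossed, the block gave 1 lower for T2M minus neutrophil label, against 0.632% of all genes. It gave 12 higher for eosinophil minus neutrophil label, against 8.34%.

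Scaling moved the direction of calls over all genes. For T2M minus eosinophil label there were 286 higher and 526 lower, and 421 and 485 after quantile normalization. For T2M minus neutrophil label these were 228 and 285, and 293 and 226 after quantile normalization. For T2M minus macrophage label they were 1188 and 1935, and 864 and 2364 after shifting to a common median, which moved the median of all genes to 0.03 from 0.18. With 2 or 3 arrays per label and differing RNA quality, genes that missed the threshold cannot be taken as equal.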

Other observations

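Over the 9 arrays, the 10 other genes whose pattern was most like the mean scaled pattern of the 37 genes had Pearson correlations of 0.956 to 0.992. In falling order they were Treml4, a receptor of the TREM family on myeloid cells, Sirpb1a, a signal-regulatory protein gene, Ppt1, a lysosomal thioesterase, Tctex1d2, Cd300c2, Irf2, Ccdc117, Plp2, Dgkh, a diacylglycerol kinase, and Myd88, the adaptor of Toll-like receptors. The arrays share labels, so this likeness is a description. Treml4 averaged 6.93 in T2M cells, 9.62 in the eosinophil label, 7.88 in the neutrophil label and 9.03 in the macrophage label.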
